A study of Rattus norvegicus with 35 samples.

Results

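The complement component genes were 9 genes on a whole-genome rat array: C1qa, C1qb and C1qc, which encode the chains of C1q, C1s, C2, C3, C4a, and the factor B and factor D genes Cfb and Cfd. A probe belonged to the set when the gene name or the bracketed symbol in its description was a member symbol. This named 8 genes directly, and C1qc, listed under an older name, was found by its transcript accession. Together 12 of the 41012 probes on the array read these 9 genes, with 2 probes each for C1qa, C1qc and C1s. The rule uses names and no measured value.

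RNA came from the olfactory epithelium of 27 Brown Norway rats that carried no engineered allele or treatment named in the labels. The newborn group held 19 pups, 3 to 5 days old and of unknown sex, from 4 litters called L1 (n = 4) and L2, L3 and L4 (n = 5 each), with RNA from 1 side of the nose and 1 array per pup. The adult group held 4 males at 9 weeks and the old group 4 males at 22 months, each with arrays A and B from the 2 sides, whose values were averaged so that each rat counted once. Pups of unknown sex were thus set against males, and old rats raised in the laboratory against litters bought with their mothers, so that sex and housing cannot be told apart from age. The newborn value is the mean of the 4 litter means, and pups of a litter share a mother. In the main fit below, the standard error (SE, given as ±) and p rest on the spread between rats of the same litter, adult or old group. For newborn differences they leave out the spread between litters.

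Complement is a set of blood and tissue proteins that tags microbes, debris and cells for removal. In the classical pathway, C1q recognises a surface, C1s in the same complex cuts C4 and C2, and the fragments form an enzyme that cuts C3, the protein on which all routes meet. In the alternative pathway, factor D cuts factor B to build another enzyme that cuts C3. The liver makes most circulating complement, whereas C1q comes mainly from macrophages and microglia, and epithelia and fibroblasts make several components locally.

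All values were levels on a log2 scale, as the probe's intensity over the median intensity of its array, so that a difference of 1 is a 2-fold difference, and a level was set only against that of the same probe in other rats. Array medians were 82.4 to 164 intensity units in the adult group and 37.2 to 87.8 in the others. All 12 probes were above background on all 35 arrays, so that no comparison of the member genes below rested on a detection limit. Defining markers of the labelled tissue were present, as all 6 measured genes of the mature sensory neuron list, among them Omp and Cnga2, and all 5 of the sustentacular list were above background on all 35 arrays. Scan day and age overlapped in part: the adult arrays were alone on 2 of 5 scan days, L1 and the old rats shared the next, and L2 to L4 filled the last 2. Adult rats therefore cannot be told apart from their scan days, and old rats could be compared with L1 within a day. The adult arrays were also read with Feature Extraction version 9.5.1.1 and all others with 9.5.3.1, so software version cannot be told apart from adult age either. Pup 24 of L2 and adult rat 15 stood apart from their groups for several of the genes, and results that rest on them are given with and without them.

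The probe that read C4a listed 2 transcripts, those of C4a and of its near-identical neighbour C4b, so its level belongs to either gene or to both. This 60-base probe is shown, with that of Cfb, because each covered a longer stretch of genome than its own length in the rn3 build (979 and 144 bases, on chromosome 20), as a probe lying across an intron does. Both lie close to C2 in the region of the major histocompatibility complex. The C4a probe is at chr20:4117005-4117983, the Cfb probe at chr20:4077203-4077346 and the C2 probe, within 60 bases, at chr20:4071731-4071790. Sequences are 5′ to 3′, as the files give them.
C4a probe: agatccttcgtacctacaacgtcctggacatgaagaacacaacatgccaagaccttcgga
Cfb probe: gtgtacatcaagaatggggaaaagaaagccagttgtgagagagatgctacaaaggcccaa

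The C1q genes sit side by side on chromosome 5, with their main probes at chr5:155657575-155657634 for C1qb, chr5:155666677-155666736 for C1qc and chr5:155672617-155672676 for C1qa. The main probes of C1s and Cfd lie at chr4:160981661-160981720 and chr7:11325547-11325604, and that of C3 in sequence not placed on a chromosome. Exon and UTR annotation of rn3 was not used here. Promoter sequences were held for 5 of the 9 members in the RefSeq table of build GRCr8. The 250 bases before the start of C1qa and C1qb are shown because these neighbours moved together across all rats, and those of C3 because its levels spread most between rats of a group. Capitals mark matches on either strand to GAGGAA (the core bound by ETS factors such as PU.1), TTNNGNAA (C/EBP), GGGANNNNCC (NF-kB, in a short form), TTCNNNGAA (STAT) or TATAAA.
C1qa, chr5:154419934-154420183, minus strand: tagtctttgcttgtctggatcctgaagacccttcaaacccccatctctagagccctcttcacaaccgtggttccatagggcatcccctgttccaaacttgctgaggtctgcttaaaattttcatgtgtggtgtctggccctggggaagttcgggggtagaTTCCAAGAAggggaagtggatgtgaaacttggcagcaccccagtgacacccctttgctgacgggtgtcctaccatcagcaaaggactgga
C1qb, chr5:154407828-154408077, minus strand: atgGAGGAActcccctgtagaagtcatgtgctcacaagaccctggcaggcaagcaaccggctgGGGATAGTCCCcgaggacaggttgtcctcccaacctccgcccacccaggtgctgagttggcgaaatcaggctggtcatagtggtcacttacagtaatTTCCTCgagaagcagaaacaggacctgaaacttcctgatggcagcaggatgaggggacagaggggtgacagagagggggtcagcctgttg
C3, chr9:2201340-2201589, minus strand: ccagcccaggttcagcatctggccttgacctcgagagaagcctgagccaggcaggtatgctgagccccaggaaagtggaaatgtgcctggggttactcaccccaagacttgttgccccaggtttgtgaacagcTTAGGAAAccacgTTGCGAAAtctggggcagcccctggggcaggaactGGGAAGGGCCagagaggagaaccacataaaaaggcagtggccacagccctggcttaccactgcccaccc
The C1qb window held 2 matches to GAGGAA, beginning 247 and 90 bases before the start, a motif found in 23.3% of the 33469 promoter windows. It also held 2 overlapping matches to GGGANNNNCC (16.4% of windows). The C1qa window held a match to TTCNNNGAA (7.7%) beginning 90 bases before the start, and none to GAGGAA. It does hold the shorter GGAA, which was not searched for. The C3 window held 2 matches to TTNNGNAA (37.2%) and 1 to GGGANNNNCC, and TATAAA (12.9%) was in none of the 5 member windows. These matches describe letters, and binding was not measured.

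Old olfactory epithelium stood apart for C1q and factor D. C1qa, C1qb, C1qc and Cfd were each 2.32- to 2.61-fold higher in old than in adult rats and 2.12- to 2.76-fold higher than in newborns, while newborn and adult levels of these 4 genes differed by at most 0.30 on the log2 scale when arrays were scaled by their medians, with no call. Newborn minus adult was larger and called for C1qa under quantile normalization (-0.49) and with normexp background correction (-0.70), and for Cfd (-0.62 and -0.51). C4a behaved otherwise, and was low in every pup and at similar levels in adult and old rats. C1s was also lowest in pups, and C2 lay between these patterns. The means of C3 and Cfb were highest in old rats. With median scaling old minus adult was 1.28 and 0.73, and newborn minus adult 0.41 and -0.04, none of them called. For both genes, pups overlapped the old rats.

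**Figure D1:**
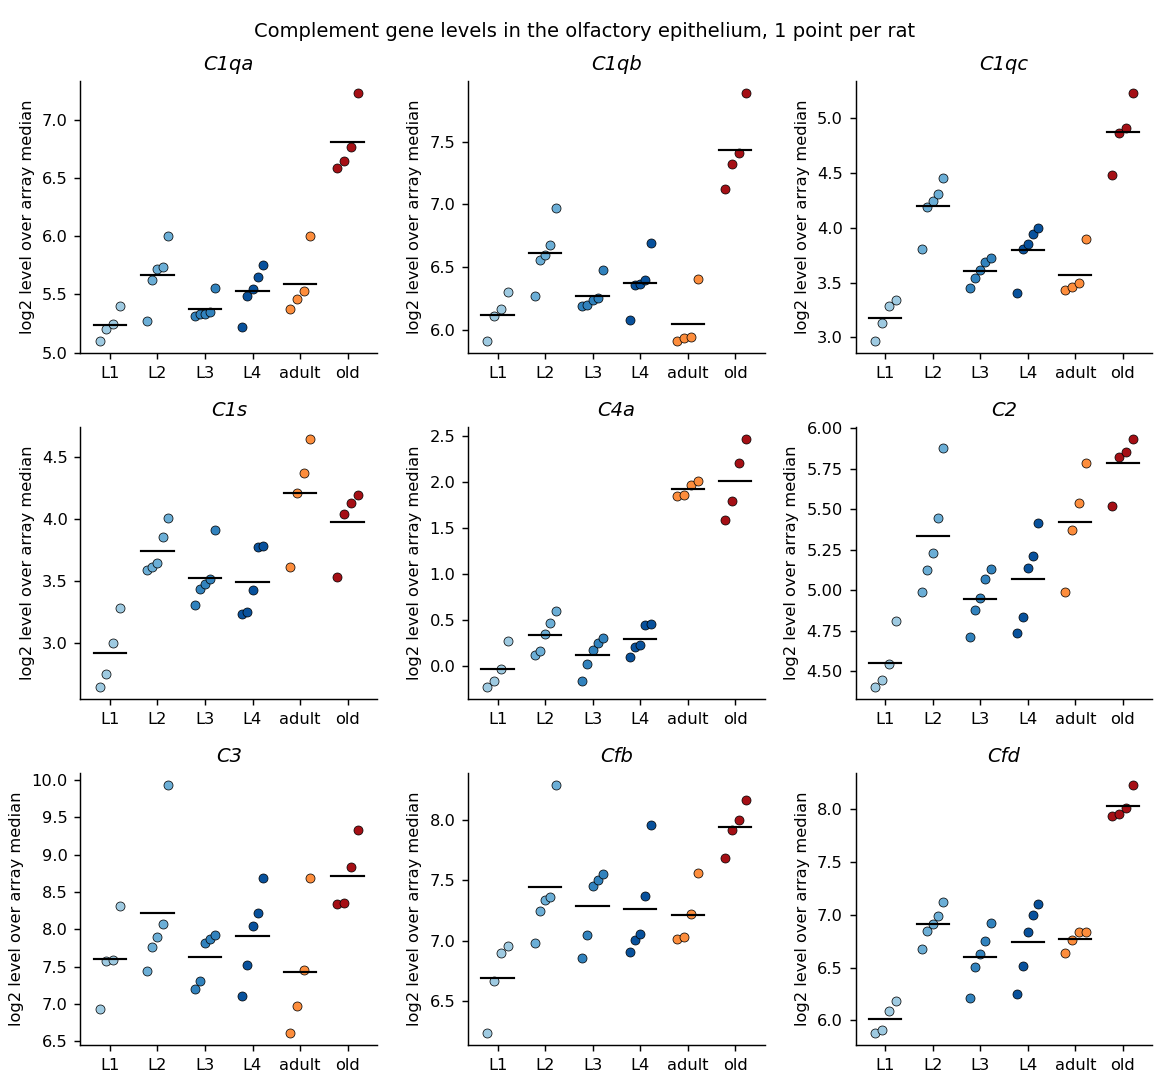
Level of each gene (y axis, log2 of intensity over the array median) in the 6 groups (x axis). Each point is 1 rat, ordered by value within its group, and bars are group means. For C1qa, C1qb, C1qc and Cfd every old rat lies above every other rat, and for C4a every pup lies below every adult and old rat.

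In the fit of all 23668 transcripts expressed in common at every age (limma, Benjamini-Hochberg adjusted p under 0.01), 4 of the 9 genes were called higher in old than in adult rats and 0 lower, beside 32.0% and 15.5% of all transcripts tested. The median difference over the 9 genes, old minus adult, was 1.21, beside 0.19 over all transcripts. Against newborns, 8 of 9 were called lower in newborns and 0 higher, beside 31.5% and 28.3% of all transcripts, and the median difference, newborn minus old, was -1.09 beside -0.03. Between newborns and adults, 3 of 9 were called lower in newborns and 0 higher, beside 26.1% and 40.1%, with a median difference of -0.14 beside 0.16. Where 0 genes were called, the count at an unadjusted limma p under 0.05 was 0 lower in old than in adult rats, 0 higher in newborns than in old rats and 1 (C1qb) higher in newborns than in adults, and the methods' t-test called 0 in each.

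**Figure D2:**
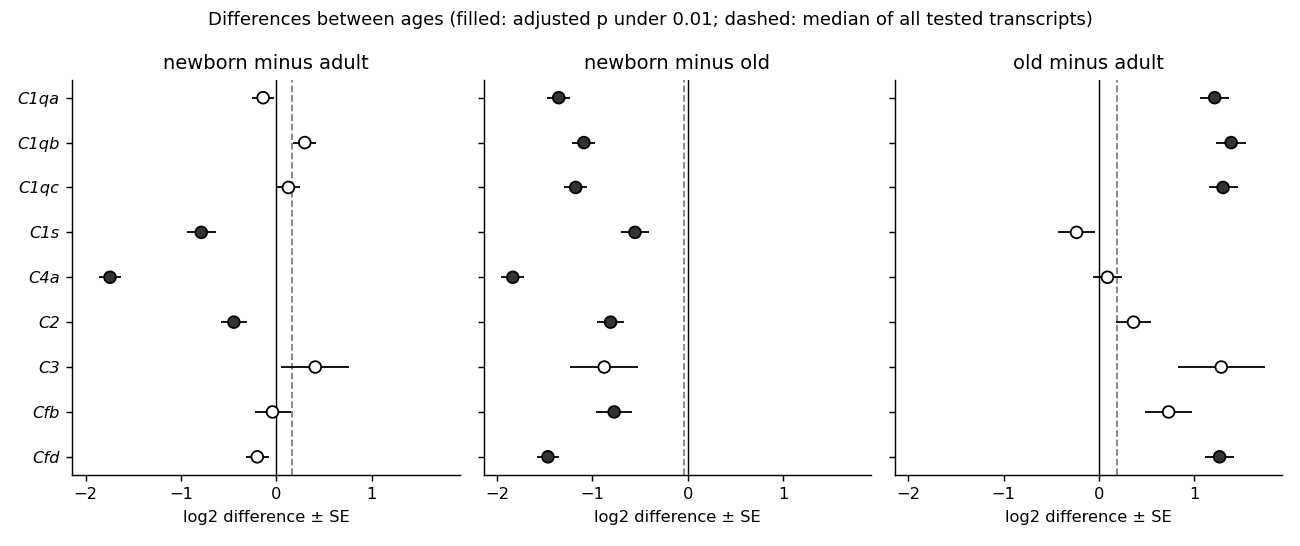
Difference in log2 level between ages (x axis, ± SE of the fit) for each gene (y axis). Filled points passed an adjusted p under 0.01 and the dashed line is the median of all 23668 transcripts. Only C1s, C4a and C2 are filled in newborn minus adult, and only the C1q genes and Cfd in old minus adult.

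The C1q chains form the recognition molecule of the classical pathway, and their genes were read by 5 probes. C1qa stood at 6.76, 6.65, 6.59 and 7.23 in old rats 17 to 20 and at 5.53, 5.46, 6.0 and 5.38 in adult rats 13 to 16. In the 19 pups it ran from 5.10, through a median of 5.40, to 6.0. The old rats did not overlap either group, whereas adults and pups did. C1qa was 1.21 ± 0.15 (SE) higher in old than in adult rats, a 2.32-fold difference (limma adjusted p = 3.47e-07), and newborn minus old was -1.35 ± 0.12 (adjusted p = 4.33e-10). Newborn minus adult was -0.14 ± 0.12 (adjusted p = 0.291).

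C1qb gave 7.41, 7.32, 7.12 and 7.88 in the old rats and 5.95, 5.91, 6.40 and 5.93 in the adults, and 5.91 to 6.97 in the pups with a median of 6.30. The old rats exceeded the adults by 1.38 ± 0.16 (limma adjusted p = 6.76e-08), and newborn minus old -1.09 ± 0.12 (adjusted p = 2.66e-08). C1qc gave 4.91, 4.86, 4.48 and 5.22 in the old rats, 3.43, 3.49, 3.89 and 3.46 in the adults, and 2.97 to 4.45 in the pups with a median of 3.73. Its old rats were the highest 4 of 27, although the pup at 4.45 was only just under the old rat at 4.48. The difference between old and adult rats was 1.30 ± 0.15 (adjusted p = 1.13e-07) and newborn minus old -1.17 ± 0.12 (adjusted p = 4.56e-09).

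The 2 further probes told the same ages apart. The second C1qa probe gave 1.39 ± 0.16 for old minus adult and -1.53 ± 0.12 for newborn minus old, and the second C1qc probe gave 1.15 ± 0.13 and -1.28 ± 0.10, all called. For C1qc the newborn minus adult difference was 0.13 by one probe and -0.13 by the other, and neither was called. For C1qb, newborn minus adult was 0.30 ± 0.12 (limma adjusted p = 0.0303), and was called without adult rat 15, at 0.42 (adjusted p = 0.00655).

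Adult rat 15 and old rat 20 held the highest C1qa, C1qb and C1qc levels of their groups, and pup 24 of L2 the highest of all pups. Across the 19 pups, after taking out the litter means, C1qa and C1qb correlated at r = 0.96 and C1qa and C1qc at r = 0.89. Across the 8 adult and old rats, after taking out the group means, the values were 0.97 and 0.90. In the same way C3 and Cfb gave 0.87 in pups and 0.94 in the adult and old rats, C2 and Cfb 0.78 and 0.84, and C1s and C2 0.13 and 0.99. Factor D ran apart, with r of 0.13 to 0.18 against the C1q genes in pups and -0.65 to -0.30 in the adult and old rats. Points in these correlations share an array and its scaling, and they are given as a description.

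**Figure D3:**
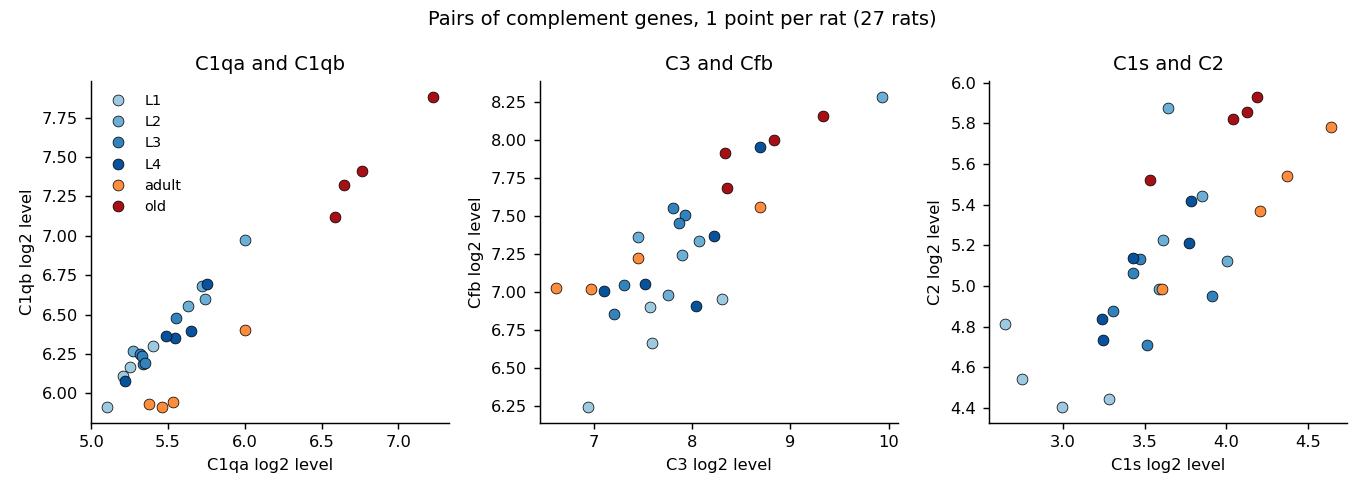
Log2 levels of pairs of complement genes (x and y axes) in 27 rats, 1 point each, coloured by group. C1qa and C1qb follow 1 line within each age, with the adult rats on a lower C1qb level for a given C1qa, C3 and Cfb rise together with pup 24 at the top right, and C1s and C2 line up among the adult and old rats.

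C1q genes are strongly expressed by macrophages, and in whole tissue fewer cells of a type and less RNA per cell cannot be told apart. Of 14 macrophage genes, 12 were on the array and 10 were tested. In old against adult rats 6 were called higher and 1 lower (median difference 0.57), beside 32.0% and 15.5% of all transcripts. In newborn against old rats 2 were called higher and 3 lower (median -0.31), beside 28.3% and 31.5%. Summed over the 12 genes, the level over the array median ran from 600 to 846 in old rats, 329 to 506 in adults and 429 to 1054 in pups. The pup at 1054 was pup 24.

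The list did not move as a block. Adgre1, the gene of an adhesion receptor on the macrophage surface, was 1.54 higher in old than in adult rats and newborn minus old was -1.46, both called. Ctss, a lysosomal protease, gave 0.74 and -2.27, and Lyz2, lysozyme, gave 1.57 and -0.65, the last of these not called. Mrc1, the mannose receptor of tissue-resident macrophages, ran the other way, with -1.60 for old minus adult and 2.44 for newborn minus old, and Cd68, a lysosomal protein of macrophages, gave -0.40 (not called) and 1.75 (called). Csf1r, the growth factor receptor of the lineage, was not called in either comparison, at 0.27 and 0.06. The part of macrophage number in the C1q difference was not tested. Of the 6 macrophage genes called higher in old than in adult rats, only Adgre1 and Lyz2 kept the call under each of the 4 scalings, while Cd14, Ctss, Tyrobp and Laptm5 lost it under quantile normalization. All 3 C1q genes kept it under each scaling.

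**Figure D4:**
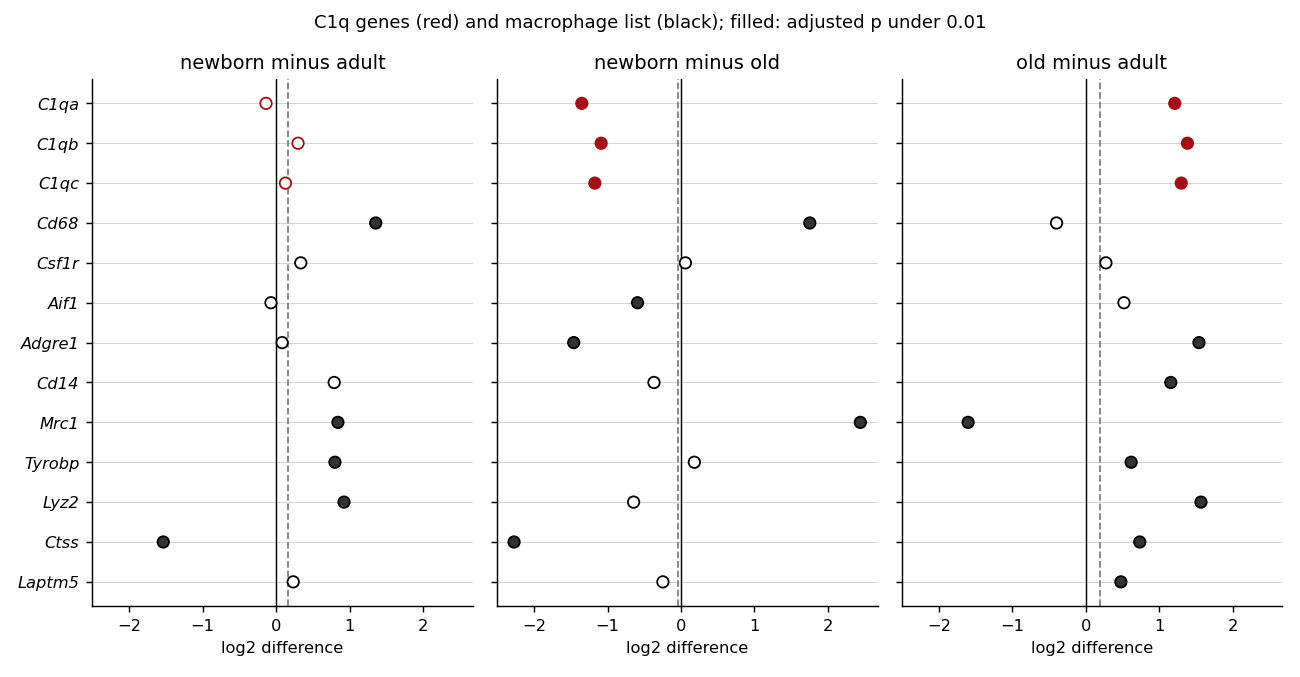
Difference in log2 level between ages (x axis) for the 3 C1q genes (red) and the 10 tested macrophage genes (black), named on the y axis. Filled points passed an adjusted p under 0.01, and the dashed line is the median of all tested transcripts. The C1q genes lie above 1 in old minus adult, where Adgre1, Cd14 and Lyz2 lie with them and Mrc1 lies at -1.60.

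C1s, the protease of the C1 complex, was low in pups. Its levels were 3.61, 4.2, 4.64 and 4.37 in the adults, 4.19, 3.53, 4.12 and 4.04 in the old rats, and 2.65 to 4.0 in the pups with a median of 3.47. Of the 19 pups, 12 lay below the lowest adult and 11 below the lowest old rat, so that the groups overlapped. Newborn minus adult was -0.79 ± 0.15 (limma adjusted p = 5.42e-05) and newborn minus old -0.55 ± 0.15 (adjusted p = 0.00239). The latter call was lost without old rat 17 (-0.48, adjusted p = 0.0175), 19 (-0.50, 0.0143) or 20 (-0.53, 0.0107). It was also lost with the slide (adjusted p = 0.0118) or the scan day (0.0209) as a random block in limma, with litter means as replicates (0.0530) and in the methods' t-test (0.0405), which did not call newborn minus adult either (0.0467). The second C1s probe gave -0.73 ± 0.16 and -0.78 ± 0.16, both called. Old minus adult was not called by either probe, at -0.23 and 0.05.

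C4 carries the classical pathway from C1s to C3, and its gene showed the largest newborn differences of the 9. The C4a probe stood at 1.85, 1.97, 2.01 and 1.86 in the adults and at 2.20, 1.58, 1.80 and 2.46 in the old rats. In pups it ran from -0.22 to 0.60, with a median of 0.20, that is near the median intensity of its array. No pup reached the lowest adult or old rat. C4a was 3.35-fold lower in newborns than in adults, at -1.74 ± 0.12 (limma adjusted p = 3.31e-12), and 3.56-fold lower than in old rats, at -1.83 ± 0.12 (adjusted p = 2.49e-12). With normexp background correction and quantile normalization both shrank, to -1.01 and -1.12, and remained called. Old minus adult was 0.09 ± 0.15 (adjusted p = 0.640), and turned to -0.06 without old rat 20.

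C2 supplies the catalytic part of the enzyme that cuts C3. It gave 4.99, 5.37, 5.78 and 5.54 in the adults, 5.93, 5.52, 5.85 and 5.82 in the old rats, and 4.40 to 5.88 in the pups with a median of 4.99. All pups but 1, pup 24, lay below the lowest old rat. Newborn minus old was -0.81 ± 0.14 (limma adjusted p = 1.72e-05). Newborn minus adult was -0.45 ± 0.14 (adjusted p = 0.00603), a call lost without adult rat 14, 15 or 16 (adjusted p of 0.0134, 0.0590 and 0.0270) and with the litter means as replicates (0.0482). It was also lost with the slide (limma adjusted p = 0.0229) or the scan day (0.0429) as a random block, with no filter on background (0.0106) and in the methods' t-test (0.103). Between old and adult rats the difference was 0.36 ± 0.18 (adjusted p = 0.0850).

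C3, the protein on which the pathways meet, varied most between rats of a group. It gave 8.83, 8.36, 9.33 and 8.34 in the old rats, 6.62, 6.97, 8.69 and 7.45 in the adults, and 6.94 to 9.93 in the pups with a median of 7.81. The highest of all 27 rats was pup 24. The SD between rats was 0.90 in the adults and 0.98 in L2, against 0.34 in L3. The larger SDs rested on adult rat 15 and pup 24. The other adults ran from 6.62 to 7.45 and the other pups of L2 from 7.45 to 8.07. Old minus adult was 1.28 ± 0.46 (limma adjusted p = 0.0189) and newborn minus old -0.87 ± 0.36 (adjusted p = 0.0323), and neither was called. Both depended on single rats, and old minus adult also on the model, as it was called with the rat as a random block (adjusted p = 0.00543) and with litter means as replicates (0.00973). Without pup 24, newborn minus old was -0.98 (adjusted p = 0.00453) and old minus adult, still at 1.28 with the smaller spread, was called at 0.00481. Without adult rat 15, old minus adult was 1.7 (0.00255).

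Pup 24 also held the highest summed level of neutrophil genes, at 198 beside a pup median of 38.4, and of macrophage genes. For red cell genes it stood at 3255 beside a pup median of 2279, but its littermate pup 21 was at 3246. The mature sensory neuron sum of pup 24 was 279 beside a pup median of 382. Its array lay on slide 10, scanned on day 5, whereas those of its 4 littermates lay on slide 6, scanned on day 4. The part of these cells, or of the slide, in its C3 level was not tested.

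Factor B, the zymogen of the alternative pathway enzyme, gave 8.0, 7.68, 8.16 and 7.91 in the old rats and 7.03, 7.02, 7.56 and 7.23 in the adults, which did not overlap. Pups ran from 6.24 to 8.29 with a median of 7.05, and 17 of 19 lay below the lowest old rat. Newborn minus old was -0.77 ± 0.19 (limma adjusted p = 0.000890). The old minus adult difference of 0.73 ± 0.24 (adjusted p = 0.0124) was not called, and it passed without adult rat 15 (0.85, adjusted p = 0.00784), pup 24 (0.00375) or pup 34 (0.00648). It also passed with the rat as a random block (limma adjusted p = 0.00173), with litter means as replicates (0.00290) and with only the groups compared in the fit (0.00169). It was 0.27 under quantile normalization and 0.09 with normexp correction. Newborn minus adult was -0.04 ± 0.19.

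Factor D, the serine protease that activates factor B and that is also known as adipsin from fat cells, varied little among the grown rats. It gave 8.01, 8.23, 7.95 and 7.94 in the old rats and 6.76, 6.84, 6.64 and 6.83 in the adults. Pups ran from 5.89 to 7.12 with a median of 6.68, all below every old rat. The SD between rats was 0.13 in the old group and 0.09 in the adult group. Old minus adult was 1.26 ± 0.15, a 2.40-fold difference (limma adjusted p = 2.19e-07), and newborn minus old was -1.46 ± 0.12 (adjusted p = 1.29e-10). Newborn minus adult was -0.20 ± 0.12 (adjusted p = 0.132).

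Detection of fat markers was mixed. Of 8 adipocyte genes, Plin1, Lep and Cidec were above background on 0 of 35 arrays. Adipoq, Retn and Pnpla2 were above background on all 35, and only these were tested. Adipoq, the gene of adiponectin, was 0.93 higher in old than in adult rats and newborn minus old was -2.46, both called. Pnpla2 gave 0.59 for old minus adult and -0.39 for newborn minus old, both called. Retn, the gene of resistin, ran the other way, with newborn minus old at 2.32 (called) and old minus adult at 0.04 (not called). Fabp4 and Lpl, for a fatty acid carrier and a lipase, were not tested, as they were above background on 0 of the 8 old arrays, and on most arrays of the other groups. Mean levels in newborn, adult and old rats were 0.68, -1.61 and -4.1 for Fabp4 and 0.046, -0.83 and -2.42 for Lpl, highest in newborns for both. Summed over the list the level was 13.3 to 14.5 in old rats, 8.81 to 11.4 in adults and 11.5 to 39.8 in pups. Of the hepatocyte and plasma list, Alb was above background on 4 of 35 arrays, and Serpina1, at 1.35 for old minus adult, was the only 1 of 4 tested genes called between these ages. Apoa1, Hp and Trf gave 0.10, 0.38 and 0.79. The part of fat or plasma in the factor D level was not tested.

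Within the scan day that L1 and the old rats shared, with these 8 rats fitted alone, all 9 genes were lower in L1, and 8 were called, beside 29.5% of all transcripts. Factor D gave -2.02 ± 0.11 (limma adjusted p = 1.11e-06), C4a -2.05 ± 0.20 and C1qa -1.57 ± 0.15. C2 gave -1.23, C1s -1.05 and Cfb -1.25. All 9 differences were larger in size there than with all 4 litters, L1 being the litter with the lowest mean for each gene. C3 gave -1.11 ± 0.30 and was not called (adjusted p = 0.0108). With the slide as a random block its SE fell to 0.20 (limma adjusted p = 0.000647), where the estimated correlation within slides was -0.24. No slide held both L1 and old rats, so this block cannot tell slide from age, and its call is not used.

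L1 was the litter with the lowest mean, and L2 that with the highest, for each of the 9 genes. For C3 and Cfb the place of L2 rested on pup 24, at 9.93 and 8.29. Without this pup the L2 mean lay below that of L4 for both genes, at 7.91 for C3 and 7.26 for Cfb in L4. The litter means spanned 1.02 for C1qc, from 3.18 in L1 to 4.2 in L2, 0.89 for Cfd, from 6.02 to 6.91, and 0.38 for C4a. In the F test among the 4 litters 4 genes were called, C1qc (limma adjusted p = 2.96e-05), Cfd (0.000142), C2 (0.00404) and C1s (0.00474), beside 37.7% of all transcripts. Litter L1 was scanned on another day than the other litters, and among L2, L3 and L4 only C1qc was called (0.00715), beside 10.9% of all transcripts.

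The 2 sides of the nose of a grown rat gave a measure of the spread within an animal. The SD within a rat is for 1 array, whereas the SD between rats is for the mean of 2 arrays, so they are unlike measures. For C1qa the SD within a rat was 0.14 in adults and 0.13 in old rats, against SDs of 0.28 and 0.29 between rats. For Cfd it was 0.13 and 0.08, against 0.09 and 0.13 between rats. For C4a in adults it was 0.35, above the 0.080 between rats, and this 0.35 includes a difference between sides of the same sign in all 4 adults. C1s differed most between sides in the adults, with side A lower than side B in all 4 adults, by 0.30 to 0.99, and in all 4 old rats, by 0.13 to 0.26. C4a was lower on side A in all 4 adults, by 0.33 to 0.61, but not in all old rats. C2 and C1qc were also lower on side A in all 4 adults, by 0.12 to 0.89 and by 0.16 to 0.28, and Cfd in all 4 old rats, by 0.06 to 0.14. The sides were not tested.

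The rest of the pathway was read through a list of 35 other complement genes. Of these, 33 were on the array by name and 19 were tested. No probe was named for Itgax or for C4b, whose transcript the C4a probe also lists. Newborn against adult gave 7 of 19 called higher and 2 lower, beside 40.1% and 26.1% of all transcripts. Newborn against old gave 4 higher and 8 lower, beside 28.3% and 31.5%. Old against adult gave 6 higher and 0 lower (1 lower, Cd55, at an unadjusted limma p under 0.05), beside 32.0% and 15.5%. Cd55, which speeds the decay of the enzymes that cut C3, was called lower in old rats with scaling to the 75th percentile (-0.54, limma adjusted p = 0.00704). Newborn against adult gave 6 higher and 5 lower under quantile normalization, and 6 and 6 with normexp correction. The medians were 0.05, -0.26 and 0.46, beside 0.16, -0.03 and 0.19 over all transcripts.

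Cfp, the gene of properdin, which stabilises the alternative enzyme, was 2.63-fold lower in newborns than in old rats, at -1.39 ± 0.10, and 0.50 higher in old than in adult rats. Masp1, a protease of the lectin pathway, was instead 2.10-fold higher in newborns than in old rats.

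Ficolins recognise sugars in the lectin pathway. Fcna was 3.1-fold higher in newborns than in adults and Fcnb 2.26-fold, while newborn minus old was 0.94 for Fcna and -0.05 for Fcnb, the latter not called. C8b, of the membrane attack complex, was 2.25-fold lower in newborns than in old rats. C9, of the same complex, was not tested, as it was above background on 8 of 19 pup arrays. It was above background on all 8 adult and all 8 old arrays, and its mean level was -2.29 in newborns, 2.36 in adults and 2.19 in old rats. Among receptors, Cd93, a C-type lectin-like receptor of endothelium and myeloid cells, was 4.44-fold higher in newborns than in adults and 6.02-fold higher than in old rats. Itgam and Itgb2, the chains of the receptor for cleaved C3, were 2.38- and 2.15-fold lower in newborns than in old rats, and Itgam was 2.06-fold higher in old than in adult rats, a call lost with normexp correction (0.38, limma adjusted p = 0.0156). Of the 6 old against adult calls in this list, 1 held under all 4 scalings, that of C8g at 0.88, while all 12 newborn against old calls did.

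**Figure D5:**
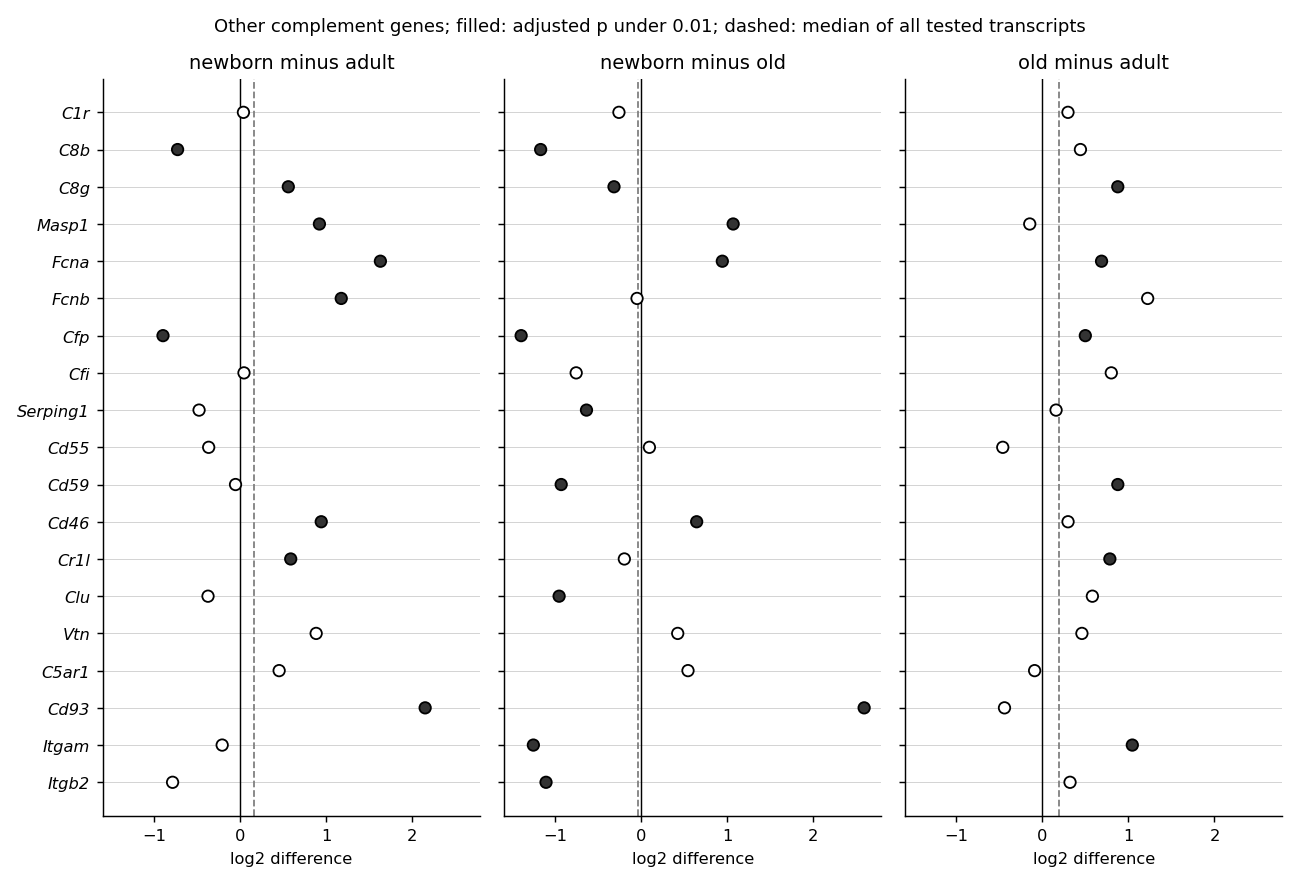
Difference in log2 level between ages (x axis) for the 19 tested genes of the other complement list (y axis). Filled points passed an adjusted p under 0.01, and the dashed line is the median of all tested transcripts. Cd93 lies farthest to the right in both newborn panels, and no filled point lies below 0 in old minus adult.

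Genes with the most similar pattern to each member over the 27 rats were read from all 23668 transcripts, as a description. Tmem140 was closest to C1qa (r = 0.94) and to C1qc (r = 0.90), followed for C1qa by RT1-DMa and RT1-CE5, genes of the major histocompatibility complex (both 0.92). Ndel1 was closest to C1qb (0.91). After centring on groups, r between C1qa and Tmem140 was 0.63. Serping1, the gene of the C1 inhibitor that blocks C1s, was closest to C1s, at r = 0.91 and 0.88 after centring. B2m, RT1-A2 and RT1-Aw2, of the class I antigen presenting molecules, were closest to C2 (0.93, 0.92 and 0.91), and still reached 0.80, 0.82 and 0.83 after centring. C3 lay closest to Parm1, Ltb and Chi3l1 (0.87, 0.87 and 0.85, and 0.83, 0.86 and 0.87 after centring), and Cfb to Krt8 and Ccl28 (0.92 each). For C4a, Spin2a, Herc3 and Cyp1a2 each gave 0.96 and fell to 0.42, 0.31 and 0.41 after centring, and for Cfd Gstm4 gave 0.95 and 0.72.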

How the data were processed

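Cy3-labelled RNA was read on 35 Agilent whole rat genome arrays. The deposited scanner files hold, per spot, a processed intensity that the authors' Feature Extraction software had background-corrected. The authors divided each array by its median, and the deposited matrix of these ratios was used as an alternative. Groups came from the labels. The members and the gene lists were chosen with earlier results of these data known.

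Spots of a probe were averaged without outlier spots, divided by the array median over 41012 probes, set to at least 0.01 and turned to log2. A transcript was expressed in common when it was above background on at least 3 arrays of each litter and at least 6 of 8 arrays of adult and of old rats, which left 23668. The probe with the highest mean stood for a gene. Differences were tested with limma 3.58.1 in R 4.3.3 (lmFit, eBayes) over 27 rats in 6 groups, with Benjamini-Hochberg adjustment over all 23668 and calls at an adjusted p under 0.01, the level of the study. The number of arrays limits the precision. The fit was tested on simulated data. Older symbols were updated through RefSeq accessions for 10735 probes. Named genes were all members, other complement genes called with at least a 2-fold difference (up to 8 per comparison), and the 3 genes most like each member, and each marker list is counted. Results of a few genes are not reported here. Single genes of the marker lists were picked for naming after their values were seen. Alternatives were the 75th percentile, quantile normalization, normexp (offset 50), the authors' matrix, other filters, random blocks for rat, slide or scan day, litter means, the methods' t-test, the mean of a gene's probes, fits of subsets of groups, and leaving out each rat. Figures used matplotlib 3.10.9. The array files give rn3 coordinates, and promoters are from RefSeq, GRCr8.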

Additional observations from a re-analysis of the deposited data

Results flagged for a closer look

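Of 54 sets of values, 9 genes in 6 groups, 5 held a rat whose gap to its nearest neighbour was large for the range of its group. Chance gives such a gap in about 1 in 20 sets. Adult rat 15 stood at 6.40 for C1qb, where the other adults lay between 5.91 and 5.95, and at 3.89 for C1qc, where they lay between 3.43 and 3.49. In litter L3, pup 28 stood at 5.55 for C1qa beside 5.31 to 5.35 in its littermates, and at 6.48 for C1qb beside 6.19 to 6.25. The C1q genes were highly correlated between rats, so these 4 values describe 2 rats. In L2, pup 24 stood at 9.93 for C3, where its littermates lay between 7.45 and 8.07. Pups 24 and 28 were both on slide 10, scanned on day 5. Of their 4 littermates each, those of pup 24 were all on slide 6, scanned on day 4, and 3 of those of pup 28 were on slide 7, also scanned on day 4. Probes above background numbered 24754 on the array of pup 24 and 24484 on that of pup 28, beside 24705 to 26740 and 26679 to 27500 in their littermates. The part of the slide in these values was not tested.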

How the results depend on the processing

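Of 360 values of single members under other settings, 331 kept their direction and their side of the threshold, and of 729 values with a rat left out, 714 did. The C1q genes and Cfd were called higher in old than in adult rats, and C4a lower in newborns than in both, under each alternative run. The C1q genes, C2, Cfb and Cfd were also called lower in newborns than in old rats under each, that with litter means as replicates among them. The size depended on the scaling: old minus adult for C1qa was 0.83 under quantile normalization and 0.61 with normexp. The median newborn minus adult difference of all transcripts was 0.16 with median scaling, 0.03 with the 75th percentile, -0.0064 with quantile normalization and -0.0021 with normexp, and the share of calls that were higher in newborns was 60.6%, 51.2%, 48.6% and 47.9%. For old minus adult the median was 0.19, 0.11, 0.04 and 0.02, and the share higher in old rats 67.4%, 59.7%, 52.0% and 51.0%. Members called lower in newborns than in adults were 3, and 6 under quantile normalization and with normexp, where C1qa, Cfb and Cfd joined, and 1 by the methods' t-test. Members called among the litters were 4, and 2 with the 75th percentile, quantile normalization, normexp, the rat block or the scan day block, and 1 with the slide block or for L2, L3 and L4 only. The cause of these shifts was not tested.

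Reversed values, none of them called, all concerned newborn minus adult but for 1. They were C1qc at -0.0052 (75th percentile), -0.036 (quantile), -0.095 (normexp) and -0.0016 (mean of the gene's probes), C1qb at -0.086 (quantile) and -0.15 (normexp), C3 at -0.10 (quantile), and Cfb at 0.039 (scan day block). With a rat left out, Cfb ran from -0.10 to 0.077, the latter without adult rat 15, and C4a old minus adult from -0.062 without old rat 20 to 0.23 without old rat 18. In the same fits, members higher in newborns than adults numbered 0 to 1 and lower 2 to 3, members lower in newborns than old rats 7 to 9 and higher 0 to 0, members higher in old than adult rats 4 to 6 and lower 0 to 0, and members called among the litters 2 to 4, with 2 without pup 9 or pup 10 of L1. No slide held both L1 and old rats, so the slide as a fixed block between them was not run. No paired analysis was possible because rat numbers are unique to 1 group.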

Other observations

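Genes of other cell types in the tissue also differed with age. Over all transcripts tested, 40.1% were called higher in newborns than in adults and 26.1% lower. Against old rats, newborns had 28.3% called higher and 31.5% lower. In old against adult rats 32.0% were called higher and 15.5% lower. The counts below stand beside these shares. Of 10 fibroblast and stroma genes, 9 were tested, and all 9 were higher in newborns than in old rats (median difference 2.63) and 7 higher than in adults. In old against adult rats 6 of them were lower, with Col3a1, the gene of type III collagen, at -2.41 and Lum, lumican, at -1.65. All 6 measured mature sensory neuron genes were lower in newborns than in adults and than in old rats, and 3 were higher in old than in adult rats, of which 0 kept that call under all 4 scalings. Of the 5 measured sustentacular genes, 4 were lower in newborns than in adults and all 5 lower than in old rats. Of 6 immature sensory neuron genes, 5 were higher in newborns than in each older group, and 1 was lower than in adults. Against adults, 2 were higher under quantile normalization and 2 with normexp. With normexp Stmn2 turned to -0.28 for newborn minus adult and was called lower (limma adjusted p = 0.00653). In old against adult rats 2 of the list were lower, and 4 under quantile normalization and 5 with normexp.

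All 3 tested red cell genes were higher in newborns than in both older groups. In old against adult rats 2 were higher, of which 1 kept that call under all 4 scalings. Of 3 tested lymphocyte genes, Cd3d and Cd3g, chains of the T cell receptor complex, were called higher in old than in adult rats (1.41 and 0.90) and than in newborns, although Cd3g was not called between old and adult rats with normexp correction (0.46, limma adjusted p = 0.0200). Of 2 tested neutrophil genes, both were higher in newborns than in adults and 1 higher than in old rats. Of 4 tested hepatocyte and plasma genes, 1 was higher and 1 lower in newborns than in each older group. Of 3 tested adipocyte genes, 1 was higher in newborns than in each older group, with 1 lower than in adults and 2 lower than in old rats. Of 10 tested macrophage genes, 4 were higher and 1 lower in newborns than in adults, and 2 and 1 under quantile normalization and 3 and 3 with normexp.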
